A study of Mus musculus with 9 samples.

Results

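The 10 genes described here mark neuroblasts and the progenitors that line the lateral ventricle of the brain: Dlx1, Dlx2, Dlx5, Dlx6, Sp8, Sox11, Dcx, Tubb3, Cd24a, and Igfbpl1. They were chosen by name and are 10 of the 38621 genes with a value in the table. All 10 passed a filter on low values that kept 29025 genes. Brain RNA of male C57BL/6 mice was sequenced in 9 samples, and the sham, ICH, and feb groups had 3 each. The labels number the samples without saying which animals they came from. Each is called a mouse here, and p-values measure only the spread between these samples, which may be partly technical. In the ICH group, intracerebral hemorrhage was modeled with an injection of 30 μl of autologous blood into the brain. The feb mice received the same injection after 5 days of daily gavage with 50 mg/kg of febuxostat, a drug that inhibits xanthine oxidase. Sham mice were injected with saline according to the study's methods, whereas the sample labels describe them as untreated. The age of the mice, the dissected region, and the time from injection to RNA extraction are not given in the sources used here.

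Neuroblasts are young, migrating neurons. In the adult mouse they arise from stem cells in the subventricular zone, pass through a dividing intermediate stage, and travel along the rostral migratory stream to the olfactory bulb, where they become interneurons. After stroke in rodents, some of them are known to turn toward the injured striatum. None of the 10 genes belongs to neuroblasts alone: Dlx genes stay active in adult GABAergic neurons, Dcx also marks newborn neurons of the hippocampus, Tubb3 is made by all neurons, and Cd24a is also made by ependymal cells. In RNA from whole tissue, fewer cells of a type and less RNA per cell cannot be told apart.

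Values are RPKM, a gene's reads divided by its exon length and by the counted reads of its sample. Totals were between 23065757 and 29538009 reads per mouse, and every member had at least 16 reads in every mouse. For comparison, 3 reads on 1 kb of exon are an RPKM between 0.102 and 0.130. Group differences are differences in mean log2(RPKM + 0.1) in limma, a scale that understates changes of genes near 0.1. A gene was called when its unadjusted p was under 0.05 and its fold change over 2, and Benjamini-Hochberg adjusted p-values cover all 29025 genes. With 3 mice against 3, an exact permutation test of 1 gene cannot give a two-sided p below 0.1. Of the 9 pairs of mice within a group, sham 1 and sham 2 differed most, with a chi-square per gene of 48.5, against 13.9 for the closest pair. The general neuronal marker Snap25 had an RPKM between 196 and 272, so a neuronal marker was present in every mouse, as the brain label calls for. The usual neuroblast marker, Dcx, had an RPKM between 0.966 and 3.15 and was 0 in none.

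In no comparison was any of the 10 genes called. The 4 Dlx genes, Sp8, Sox11, Dcx, Cd24a, and Igfbpl1 had higher means in the ICH group than in the sham group, and Tubb3 a lower one, but the differences did not hold up against the spread between mice. A single mouse, sham 1, had the lowest value of 8 of the 10 genes, and results are therefore given with and without it. ICH 1 had the highest value of 6 genes.

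The genes differed widely in level. Tubb3, which encodes a neuronal tubulin, led with a mean RPKM of 77.0 ± 16.2 (SD, n = 9), and its lowest mouse was above the highest mouse of every other member. Sox11, a transcription factor of immature neurons, followed at 5.45 ± 1.16, then Dlx1 at 4.87 ± 2.08, Dlx5 at 3.91 ± 1.86, and Dlx6 at 3.29 ± 1.48 (SD, n = 9 each). Cd24a had 2.07 ± 0.565, Dcx 1.76 ± 0.637, Dlx2 1.35 ± 0.601, Sp8 0.690 ± 0.436, and Igfbpl1 0.381 ± 0.129 (SD, n = 9 each). Except for Tubb3 and Sox11, the ranges of neighbours in this order overlapped. Within most mice the order still held, since Dcx was above Dlx2 in 9 of 9 mice and Dlx5 was above Dlx6 in 7 of 9. Sox11 was above Dlx1 in only 6 of 9.

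**Figure D1:**
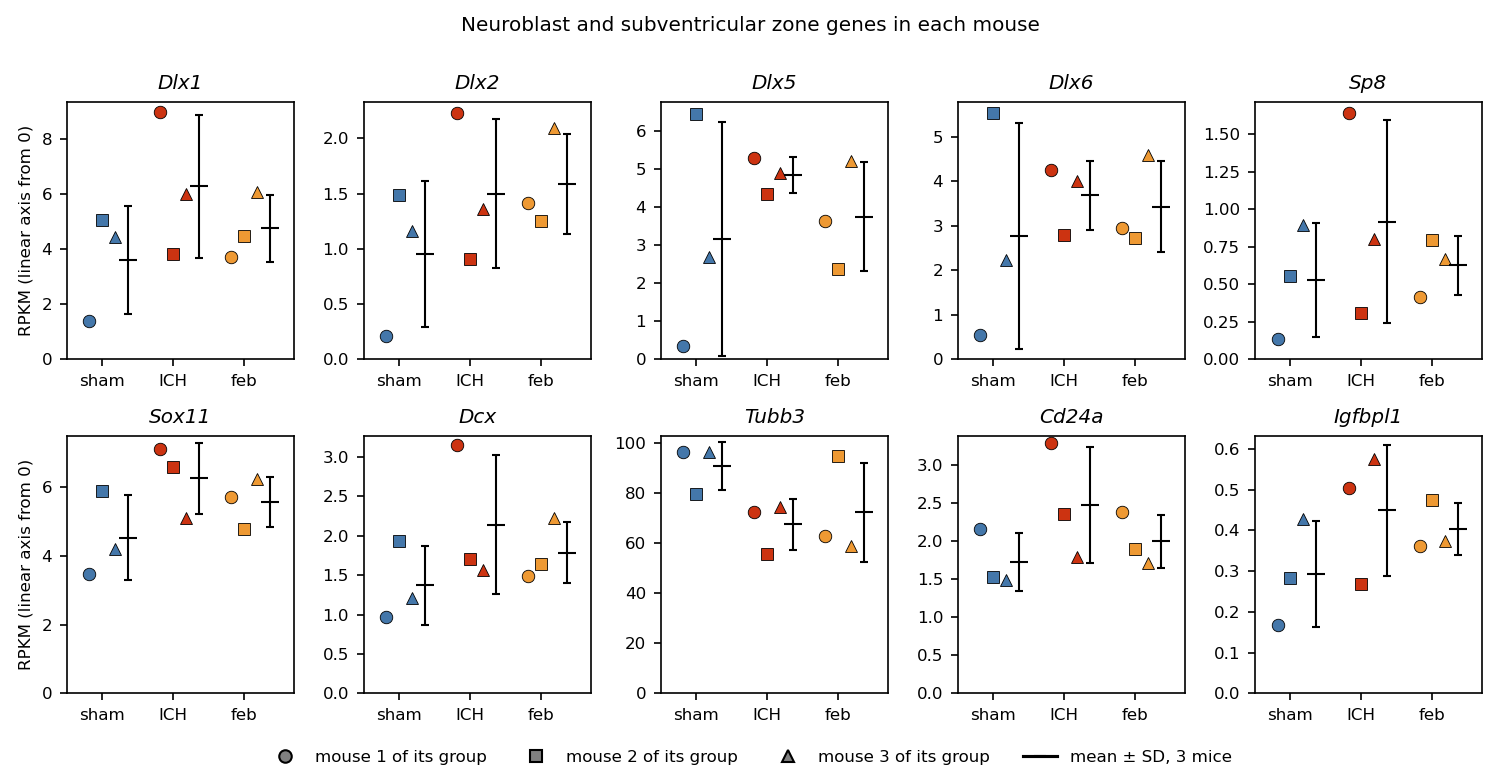
RPKM of the 10 genes in each mouse, on linear axes that start at 0, with the mouse number as the symbol and the mean ± SD of 3 mice as a black bar. Sham 1 (blue circle) is the lowest point for 8 genes, and only in Tubb3 do the sham and ICH mice not overlap.

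Promoter sequences were looked up for all members, because several of them varied together over the mice, and RefSeq windows on GRCm38 (GRCm38.p6) were found for 6 of the 10. Dlx5, Dlx6, Cd24a, and Igfbpl1 had no entry. All 250 bases of the Dlx1 window were exonic, and the Tubb3 window, with 121 bases before its first exonic base, is not printed. The bases before the start site are printed 5′ to 3′ on the strand of the gene, for Dlx2, Sox11, and Sp8, each with a window clear of annotated exons, and for the exon-free part of the window of Dcx, so that their start regions can be set against each other. Capitals mark matches, on either strand, to 4 motifs. One is TAATTA, the core bound by homeodomain proteins such as the Dlx factors, which was found in 4.84% of 32851 promoter windows of the same length. The E-box searched was CAGCTG, present in 13.0% of the windows. A TATA box was searched as TATAAA and was present in 12.4% of them. The GC box was searched as GGGCGG, which 32.7% of the windows held.
Dlx2, chr2:71546755-71547004, minus strand: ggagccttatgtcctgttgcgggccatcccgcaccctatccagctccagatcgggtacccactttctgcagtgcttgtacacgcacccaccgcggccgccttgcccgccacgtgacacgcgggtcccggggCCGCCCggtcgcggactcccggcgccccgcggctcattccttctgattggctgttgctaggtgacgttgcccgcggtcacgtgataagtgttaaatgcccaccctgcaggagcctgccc
Sox11, chr12:27342719-27342968, minus strand: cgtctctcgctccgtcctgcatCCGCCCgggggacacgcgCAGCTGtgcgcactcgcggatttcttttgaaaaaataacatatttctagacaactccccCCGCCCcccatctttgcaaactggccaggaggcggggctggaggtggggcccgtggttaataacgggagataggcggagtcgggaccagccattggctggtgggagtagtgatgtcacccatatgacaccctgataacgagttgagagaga
Sp8, chr12:118846079-118846328, plus strand, 1 of its 3 windows: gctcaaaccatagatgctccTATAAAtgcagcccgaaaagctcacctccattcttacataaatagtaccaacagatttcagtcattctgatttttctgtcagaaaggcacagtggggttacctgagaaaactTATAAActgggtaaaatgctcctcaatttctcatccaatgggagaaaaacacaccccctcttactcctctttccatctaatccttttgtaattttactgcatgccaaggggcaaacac
Dcx, chrX:143933312-143933469, minus strand: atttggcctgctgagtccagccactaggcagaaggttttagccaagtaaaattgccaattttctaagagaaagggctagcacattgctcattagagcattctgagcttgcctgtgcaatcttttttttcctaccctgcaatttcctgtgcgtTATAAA
The Dlx2 window held 1 GC box in 250 bases, and the Sox11 window 2 GC boxes and 1 E-box. The Sox11 window does not adjoin the counted gene, since it begins at 27342719 and the gene ends at 27342574. The Sp8 window held 2 TATA boxes, and the 158 bases before the first annotated exon of Dcx ended in 1 TATA box. Dcx had more than 1 window, and in the one printed the last 92 bases, up to the RefSeq start, were exonic. None of the 4 stretches held TAATTA, but another window of Sp8 held 1 match, and so did the full 250-base windows of Dcx, within the exonic bases not printed. GC content was 66.4% in the window of Dlx2 and 40.8% in the Sp8 window printed. It depended on the window, since the Sp8 window at 118846983 to 118847232, also clear of exons, had 67.2%. That window held 1 GC box and no TATA box. A match is a description of the letters and not evidence that a factor binds there.

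The Dlx genes encode homeodomain transcription factors that direct the formation of GABAergic neurons in the embryonic ganglionic eminences and in the adult subventricular zone. They lie in pairs that face each other, Dlx1 and Dlx2 on chromosome 2 with 9426 bases between them, and Dlx6 and Dlx5 on chromosome 6 with 9236 bases between them. Dlx1 (positions 71528113 to 71533981, plus strand, 5396 exonic bases) had an RPKM of 1.37, 5.03, and 4.42 in sham 1 to 3, 8.96, 3.83, and 5.99 in ICH 1 to 3, and 3.70, 4.46, and 6.07 in feb 1 to 3. Sham 1 was the lowest and ICH 1 the highest, and the 3 groups overlapped. The ICH mean exceeded the sham mean by 0.89 on the log2 scale (SE 0.48, adjusted p = 0.458), and by 0.32 without sham 1.

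Dlx2 (71543408 to 71546754, minus strand, 2855 exonic bases), the partner of Dlx1, had an RPKM of 0.213, 1.49, and 1.16 in sham 1 to 3, 2.23, 0.906, and 1.36 in ICH 1 to 3, and 1.42, 1.25, and 2.10 in feb 1 to 3. The value of sham 1 rested on 18 reads, against 68 to 156 in the other mice. All groups overlapped, and sham 1 stood far below the rest. The ICH and sham means differed by 0.82 (SE 0.59, adjusted p = 0.554), and by 0.09 without sham 1. Dlx2 was the only Dlx gene with a higher mean in the feb than in the ICH group, by 0.13 (SE 0.59).

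Dlx5 (chromosome 6, 6877805 to 6882085, minus strand, 2263 exonic bases) had the widest range of the members by fold. It had an RPKM of 0.359, 6.44, and 2.69 in sham 1 to 3, 5.29, 4.33, and 4.89 in ICH 1 to 3, and 3.64, 2.36, and 5.21 in feb 1 to 3. The lowest and the highest value of the 9 mice both belonged to the sham group, 17.9-fold apart, while the ICH mice lay close together. The difference between ICH and sham was 1.28 (SE 0.81, 95% interval -0.57 to 3.12, adjusted p = 0.512), and 0.21 without sham 1.

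Dlx6 (6863334 to 6868568, plus strand, 2375 exonic bases) had an RPKM of 0.542, 5.53, and 2.23 in sham 1 to 3, 4.25, 2.80, and 4.003 in ICH 1 to 3, and 2.94, 2.74, and 4.60 in feb 1 to 3. As for its neighbour Dlx5, sham 1 was the lowest and sham 2 the highest of all mice. The ICH mean was above the sham mean by 0.87 (SE 0.66, adjusted p = 0.575), and by 0.04 without sham 1.

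Within groups, the Dlx genes spread more than most tested genes with a mean RPKM of at least 1, a set that also holds far more abundant genes. The pooled within-group SD on the log2 scale was 1.18 for Dlx5, 0.96 for Dlx6, 0.84 for Dlx2, and 0.70 for Dlx1, against a median of 0.19 over the 17661 tested genes with a mean RPKM of at least 1. Dlx5 stood at percentile 98.6 of these genes and Dlx1 at 94.97. Sham 1 carried much of this spread, since without it the SD was 0.53 for Dlx5, 0.51 for Dlx6, 0.46 for Dlx2, and 0.45 for Dlx1. Tubb3 (0.27, percentile 67.6), Sox11 (0.28, percentile 69.5), and Cd24a (0.32, percentile 75.2) were closer to the middle. Dcx, at 0.44 (percentile 85.7), lay between these and the Dlx genes. Antisense transcripts run over both Dlx loci. Dlx1as shares 335 exonic bases with Dlx1 on the other strand and Dlx6os2 shares 104 with Dlx6, and since the counting is not stated to use strand, reads there cannot be told apart. Dlx6os1, which spans Dlx6 without sharing exonic bases, had an RPKM of 0.513, 5.40, and 1.77 in sham 1 to 3, 7.63, 3.78, and 4.49 in ICH 1 to 3, and 2.74, 2.696, and 4.70 in feb 1 to 3, so its lowest mouse was also sham 1. Of the 3 antisense transcripts tested, only Dlx1as was called, higher in the ICH than in the sham group by 1.03 (SE 0.42, adjusted p = 0.390), and this call was lost when sham 1, ICH 1, ICH 3, feb 2, or feb 3 was left out. The longest identical run shared by transcripts of a member of the Dlx family and another Dlx gene was 23 bases. It was 48 bases for Sox11 and Sox4, 47 for Tubb3 and Tubb6, 44 for Sp8 and Sp9, and 23 for Dcx and Dclk1.

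Sp8 encodes a zinc finger factor of the neuroblasts that become olfactory bulb interneurons. It (chromosome 12, 118846329 to 118852578, plus strand, 4480 exonic bases) had an RPKM of 0.136, 0.555, and 0.897 in sham 1 to 3, 1.64, 0.306, and 0.801 in ICH 1 to 3, and 0.413, 0.796, and 0.668 in feb 1 to 3. The extremes were again sham 1 and ICH 1, 12.1-fold apart, and the ICH range enclosed the feb range. ICH and sham differed by 0.68 (SE 0.63, adjusted p = 0.651), and by 0.09 without sham 1.

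Sox11 (chromosome 12, 27334264 to 27342574, minus strand, 8311 exonic bases) had an RPKM of 3.47, 5.88, and 4.21 in sham 1 to 3, 7.09, 6.57, and 5.10 in ICH 1 to 3, and 5.71, 4.79, and 6.23 in feb 1 to 3. The ICH mice were above sham 1 and sham 3, but ICH 3 was below sham 2. Sox11 was the only member with an unadjusted p under 0.05 in any comparison. Its ICH mean was above the sham mean by 0.48 (SE 0.21, 95% interval 0.01 to 0.95, unadjusted p = 0.0459 in limma, adjusted p = 0.402), and by 0.31 without sham 1 (unadjusted p = 0.164 in limma).

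Dcx encodes doublecortin, a microtubule-binding protein of migrating neurons and the usual marker of neuroblasts. This gene (chromosome X, 143855842 to 143933311, minus strand, 12647 exonic bases) had an RPKM of 0.966, 1.94, and 1.21 in sham 1 to 3, 3.15, 1.70, and 1.56 in ICH 1 to 3, and 1.49, 1.64, and 2.22 in feb 1 to 3. ICH 1 was the highest mouse, and the other ICH mice were below sham 2. The difference between ICH and sham was 0.59 (SE 0.32, adjusted p = 0.455), 0.39 without sham 1 and 0.29 without ICH 1.

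Tubb3 was the only member with a lower ICH than sham mean. This gene (chromosome 8, 123411424 to 123422015, plus strand, 1868 exonic bases) had an RPKM of 96.7, 79.8, and 96.5 in sham 1 to 3, 72.7, 55.7, and 74.5 in ICH 1 to 3, and 63.1, 95.2, and 59.2 in feb 1 to 3. Every ICH mouse was below every sham mouse, while feb 2 lay among the sham mice and the other feb mice below them. The ICH mean was below the sham mean by 0.43 on the log2 scale (-0.43, SE 0.19, 95% interval -0.87 to 0.00, adjusted p = 0.408). Tubb3 was the only 1 of the 10 members whose sham and ICH mice did not overlap, where 19.4% of all tested genes did not. The 9 markers of mature neurons did not move one way. Nefh and Nefm, which encode neurofilament subunits, were called lower in the ICH group, by -1.31 (SE 0.43) and -1.07 (SE 0.44), whereas Rbfox3, a nuclear protein of neurons, and Syt1, a synaptic vesicle protein, had ICH means above sham by 0.32 (SE 0.13) and 0.29 (SE 0.12) with mice that did not overlap. In all, 4 of the 9 differences were positive. Both calls were lost without sham 1 or without ICH 2, and that of Nefm also without ICH 1, feb 1, or sham 3. In sham 1, the summed RPKM of this list was 1768, against 1081 and 1252 in the other sham mice, 1005 to 1138 in the ICH mice, and 1055 to 1404 in the feb mice. No marker of the list was at 0, and its part in the Tubb3 values was not tested.

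Cd24a encodes a surface glycoprotein of neuroblasts, ependymal cells, and other cells. It (chromosome 10, 43578284 to 43584265, plus strand, 2580 exonic bases) had an RPKM of 2.17, 1.53, and 1.49 in sham 1 to 3, 3.29, 2.36, and 1.79 in ICH 1 to 3, and 2.39, 1.90, and 1.71 in feb 1 to 3. Here sham 1 was the highest sham mouse. ICH exceeded sham by 0.48 (SE 0.24, adjusted p = 0.440), and, unlike the other members with a higher ICH mean, by more without sham 1 (0.64, SE 0.26, unadjusted p = 0.0387 in limma, adjusted p = 0.697). The markers of ependymal cells had 0 of 10 genes called in each comparison and a summed RPKM of 16.8 to 25.5 in the sham mice, 19.6 to 24.3 in the ICH mice, and 17.8 to 27.8 in the feb mice. ICH 1, the highest mouse for Cd24a, also had the highest summed RPKM of red blood cell markers (124). Feb 1, the next highest for Cd24a, had the lowest sum (17.2), and the part of blood cells in the Cd24a values was not tested.

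Igfbpl1, a secreted protein related to the insulin-like growth factor binding proteins, had the lowest level. Its RPKM (chromosome 4, 45809468 to 45826923, minus strand, 3250 exonic bases) was 0.167, 0.283, and 0.427 in sham 1 to 3, 0.503, 0.269, and 0.576 in ICH 1 to 3, and 0.3603, 0.475, and 0.374 in feb 1 to 3. These values rest on 16 to 49 reads. All groups overlapped, and ICH and sham differed by 0.49 (SE 0.33, adjusted p = 0.530), or 0.24 without sham 1.

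Set side by side, the ICH mean was above the sham mean for 9 of the 10 genes, with a median difference of 0.64, where the median over all tested genes was 0.08 and 61.1% of them were positive. Of the 10 genes, 0 were called (2.53% of all tested genes were) and 0 passed an adjusted p of 0.05 (0.0241%). An unadjusted p under 0.05 was found for 1, Sox11, where 12.3% of all tested genes had one, a share near that of the members. With voom on the reads recovered from RPKM it was found for 2, Sox11 and Tubb3. Without sham 1 the median difference was 0.22, with 9 of the 10 positive. Without sham 2, the mouse with the highest Dlx5 and Dlx6, 3 genes were called, Dlx1 (1.22), Dlx5 (2.12), and Dlx6 (1.61), and 4.48% of all tested genes were called in that fit. Scaling to equal medians moved the median over all genes from 0.08 to -0.03 and the called genes from 423 higher and 312 lower to 296 higher and 443 lower, and 9 of the 10 members stayed positive.

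**Figure D2:**
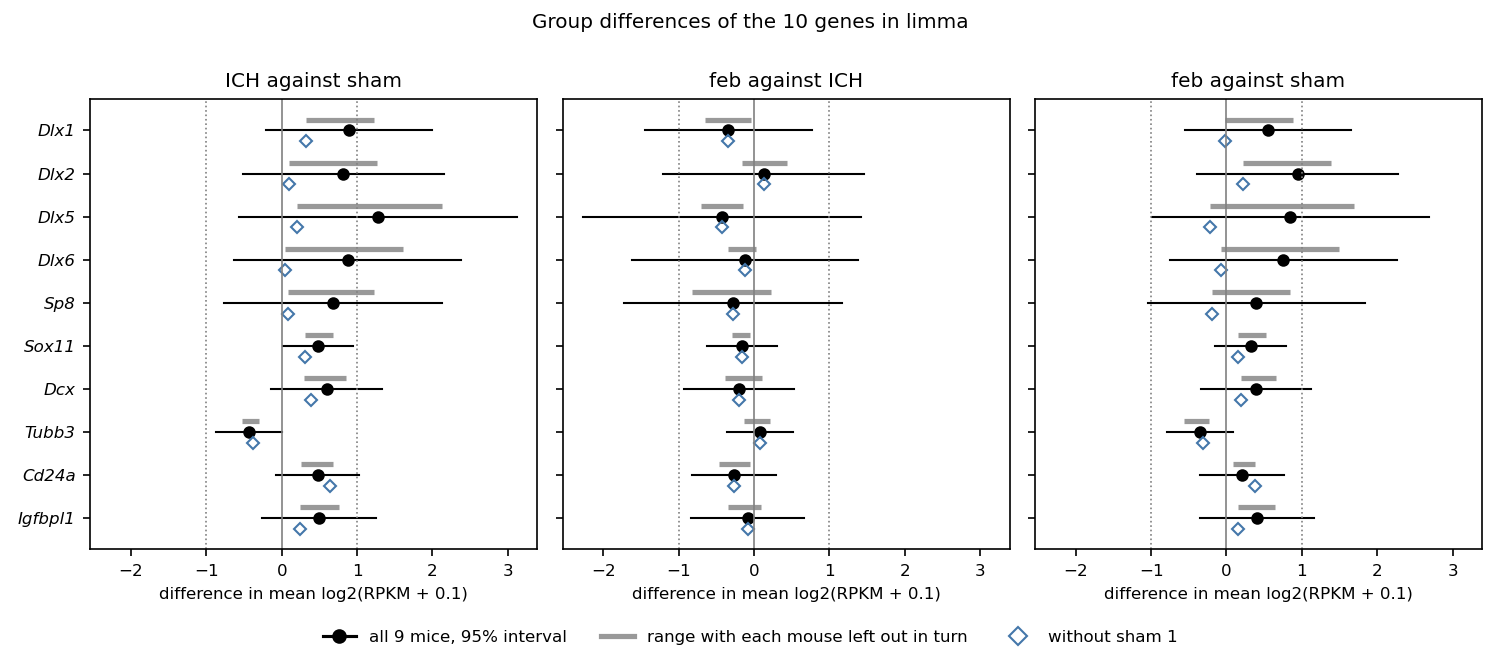
Differences in mean log2(RPKM + 0.1) between groups for the 10 genes. Black points and lines are the limma estimates from all 9 mice with their 95% intervals, grey bars span the estimates with each mouse left out in turn, diamonds are the estimates without sham 1, and dotted lines mark a fold change of 2. Diamonds of the Dlx genes and Sp8 sit between 0.04 and 0.32 in the comparison of ICH with sham.

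Whether febuxostat shifted these genes in mice with hemorrhage was asked by comparing the feb with the ICH group. The feb mean was lower for 8 of the 10 genes and higher for Dlx2 (0.13) and Tubb3 (0.08), with a median difference of -0.18, and of -0.01 over all tested genes. The most negative were Dlx5 (-0.43, SE 0.81, 95% interval -2.27 to 1.41) and Dlx1 (-0.34, SE 0.48, 95% interval -1.44 to 0.76). Intervals this wide hold both no difference and changes of more than 2-fold for each of the Dlx genes. Sox11 was bounded more closely, at -0.16 (SE 0.21, 95% interval -0.63 to 0.31). Of the members, 0 were called (2.43% of all tested genes were), 0 had an adjusted p under 0.05 (0.00689%), 0 had an unadjusted p under 0.05 in limma (11.1%) or with voom, and 0 had groups that did not overlap (17.2%). The lowest adjusted p was 0.701, for Cd24a. Without ICH 1, the highest mouse for 6 members, 5 of the 10 differences were positive and the median was -0.0015.

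The third comparison, of feb with sham, shares its mice with the other two and is not independent of them. The feb mean was above the sham mean for 9 of the 10 genes, with a median difference of 0.40, where 58.7% of all tested genes were positive and their median was 0.05. Dlx2 had the largest difference (0.95, SE 0.59, adjusted p = 0.663), followed by Dlx5 (0.85, SE 0.81), Dlx6 (0.76, SE 0.66), and Dlx1 (0.55, SE 0.48), and Tubb3 was lower (-0.36, SE 0.19, adjusted p = 0.632). None was called (0 of 10, against 2.2% of all tested genes), none had an unadjusted p under 0.05 in limma or voom (8.54%) or an adjusted one (0.00345%), and in none did the groups fail to overlap (12.7%). Without sham 1 only 5 of the 10 differences were positive and the median was 0.06. Without sham 2 there were 3 calls, Dlx2 (1.39), Dlx5 (1.69), and Dlx6 (1.49), in a fit that called 3.96% of all tested genes.

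Over the mice, members of a Dlx pair followed each other closely. The following are Pearson's r and Spearman's rho on log2(RPKM + 0.1) over the 9 mice, with two-sided exact permutation tests and Benjamini-Hochberg adjustment over 15 pairs of genes. Dlx5 and Dlx6 had r = 0.979 (exact permutation p = 9.37e-05, adjusted 0.00141) and rho = 0.950 (p = 0.000353, adjusted 0.00529), and r was 0.950 without sham 1 and feb 2, the mice farthest from the median. Dlx1 and Dlx2 had r = 0.949 (exact permutation p = 0.000934, adjusted 0.00467) and rho = 0.800 (p = 0.0138, adjusted 0.0415), with r = 0.676 without sham 1 and ICH 1. With group means removed, these r were 0.981 and 0.980. Sham 1 was still among these values, and r with group means removed was not computed without it. Their ratios varied less than their levels: the RPKM of Dlx5 was 0.663 to 1.55 times that of Dlx6, a 2.33-fold range, where Dlx5 itself ranged 17.9-fold.

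**Figure D3:**
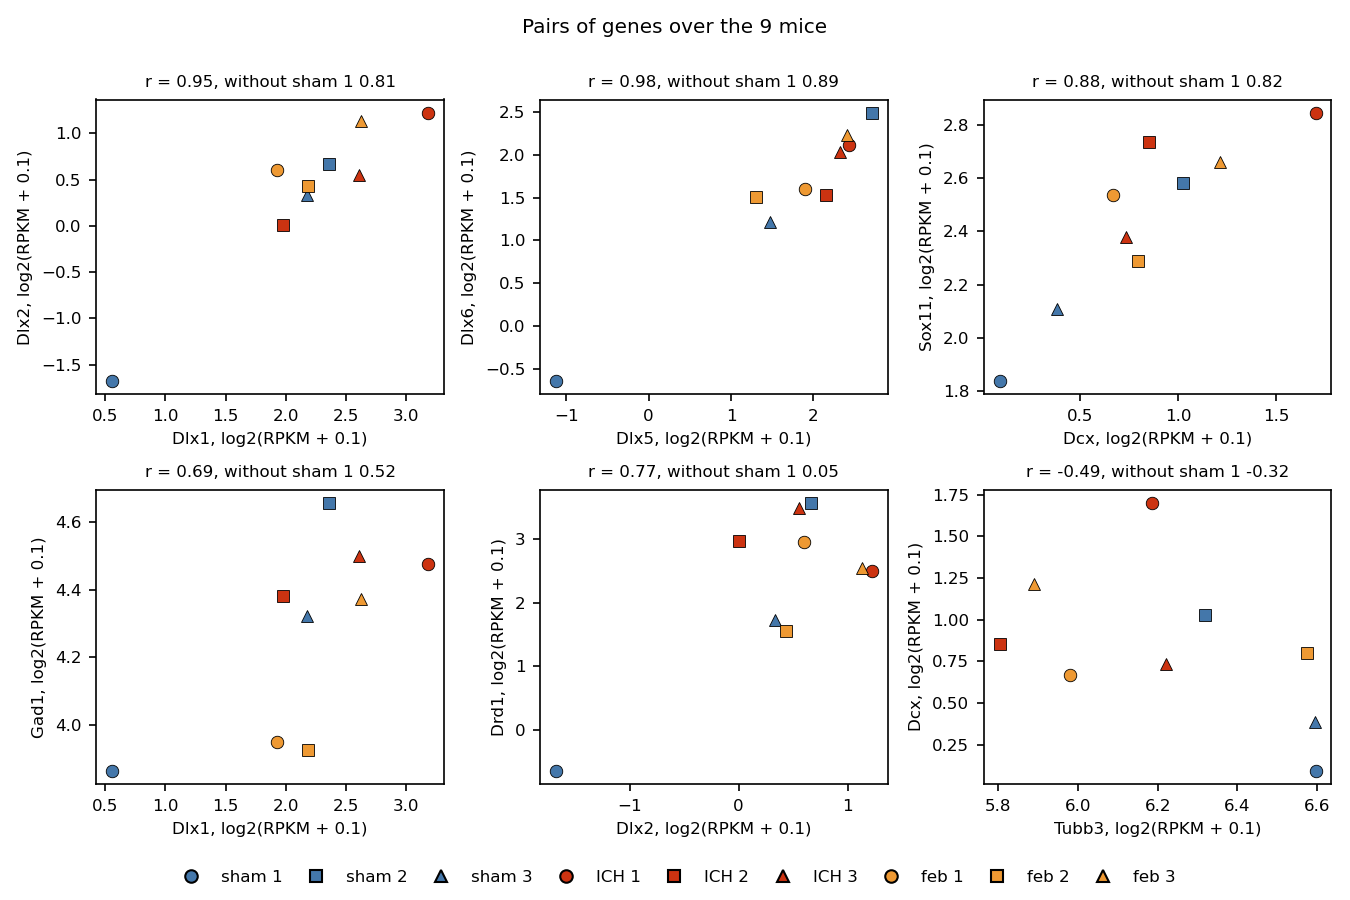
Log2(RPKM + 0.1) of 6 pairs of genes, 1 point per mouse, coloured by group and with the mouse number as the symbol. Dlx5 and Dlx6 lie on a line with and without sham 1 (r = 0.979 and 0.891), whereas the relation of Dlx2 with Drd1 rests on sham 1 (r = 0.772 and 0.0535).

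Without sham 1, r was 0.810 for Dlx1 and Dlx2 and 0.891 for Dlx5 and Dlx6, and it was lower between the pairs. Dlx1 was not close to Dlx2 alone, as without sham 1 it had r = 0.819 with Sp8 and 0.803 with Dcx. Dlx1 and Dlx6 had r = 0.901 (exact permutation p = 0.00610, adjusted 0.0183) and rho = 0.733 (p = 0.0311, adjusted 0.0667), with r = 0.608 without sham 1. Without sham 1 and ICH 1 their r was 0.677, as close as the 0.676 of Dlx1 and Dlx2. Dlx2 and Dlx5 had r = 0.910 (exact permutation p = 0.0121, adjusted 0.0227) and rho = 0.800 (p = 0.0138, adjusted 0.0415), with r = 0.488 without sham 1 and 0.416 without sham 1 and ICH 1. For Sp8 and Dlx2, r was 0.819 (exact permutation p = 0.00739, adjusted 0.0185) and rho 0.500 (p = 0.178, adjusted 0.264). This r was 0.617 without sham 1 and 0.830 with group means removed. It was 0.323 without sham 1 and ICH 1, the mice farthest from the median of Sp8.

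Dcx followed Sox11, with r = 0.885 (exact permutation p = 0.00146, adjusted 0.00547) and rho = 0.883 (p = 0.00308, adjusted 0.0154), and r = 0.752 without sham 1 and ICH 1. The RPKM of Dcx was 0.259 to 0.444 times that of Sox11 in all mice. With Dlx2, Dcx had r = 0.808 (exact permutation p = 0.0101, adjusted 0.0216) and rho = 0.767 (p = 0.0214, adjusted 0.0535), and r = 0.598 without the same mice. No relation was detected between Dcx and Igfbpl1 (r = 0.469, exact permutation p = 0.202, adjusted 0.235, rho = 0.267, p = 0.493, adjusted 0.529), and r was -0.371 without sham 1 and ICH 1. Tubb3 and Dcx, both neuronal cytoskeleton genes, had r = -0.494 (exact permutation p = 0.179, adjusted 0.235) and rho = -0.600 (p = 0.0968, adjusted 0.161), with r = -0.431 without sham 1 and ICH 2.

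All 45 pairs of members can be described together, without a test, since the values of a mouse share its library and scaling. Among the 36 pairs without Tubb3, 34 had a positive r with a median of 0.748, which was 0.499 without sham 1. Tubb3 had a negative r with 8 of the 9 other members, with a median of -0.439. Cd24a had a median r of 0.0490 with the 8 others apart from Tubb3, and values from -0.103 to 0.409. With Foxj1, a transcription factor of ciliated ependymal cells, Cd24a had r = 0.319 (exact permutation p = 0.403, adjusted 0.432) and rho = 0.483 (p = 0.194, adjusted 0.264), with r = 0.737 without sham 3 and ICH 1. Tubb3 and Snap25, a synaptic gene of mature neurons, had r = 0.270 (exact permutation p = 0.494, adjusted 0.494) and rho = 0.0333 (p = 0.948, adjusted 0.948), with r = -0.0131 without sham 1 and ICH 2. Dlx6 and the antisense transcript Dlx6os1 had r = 0.954 (exact permutation p = 0.000389, adjusted 0.00291) and rho = 0.933 (p = 0.000750, adjusted 0.00562), with r = 0.878 without sham 1 and sham 2. The averaged standardised level, in units of the SD of each gene over the mice, of the members was lowest in sham 1, at -1.53, and highest in ICH 1, at 1.10, and lay between -0.19 and 0.28 in the other 7 mice.

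The genes most like that average, among 17653 tested genes with a mean RPKM of at least 1 that are not members, were Gm10025 (r = 0.981 over the 9 mice), Dlx1as (0.973), Gm37409 (0.951), Kcnf1 (0.947), B930095G15Rik (0.946), Ptov1 (0.944), Fam120aos (0.938), and Dlx6os1 (0.932). Closest to Dcx were Zgpat (0.969), Hnrnpl (0.968), and Gm15577 (0.968), and closest to Dlx1 were Gm10025 (0.967), Dlx1as (0.966), and Gm37409 (0.964). These were picked as the highest of many values, and Dlx1as shares exonic bases with Dlx1. Some changed little in size, as Ptov1 ranged only from 8.20 to 9.58 RPKM.

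The other cells of the neurogenic lineage were examined through lists of markers. Of 16 other neuroblast genes, 0 were called in each of the 3 comparisons, and their median difference between ICH and sham was 0.07. The most abundant of them, Stmn1, had an RPKM of 169 to 284 in the sham mice, 162 to 214 in the ICH mice, and 129 to 277 in the feb mice, so the groups overlapped. Without sham 2, 2 were called higher in ICH than in sham. Among 10 cues and 12 receptors of neuroblast migration 0 were called in each comparison. Slit1, a repellent that guides migrating neuroblasts, had a higher mean in the ICH than in the sham group by 0.61 (SE 0.31, adjusted p = 0.443). Of the 12 receptors, 9 had a positive difference. The Slit receptors went both ways, with Robo2 at 0.50 (SE 0.14, adjusted p = 0.345) without overlap between the mice, and Robo1 at -0.27 (SE 0.10, adjusted p = 0.382).

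Transit amplifying and dividing cells precede the neuroblasts in the lineage. Of 12 of their genes, 2 were called higher in the ICH than in the sham group. The difference was positive for 11 (median 0.37), and 4 had every ICH mouse above every sham mouse. For feb against ICH, 11 were negative (median -0.51), and 7 had every feb mouse below every ICH mouse. Groups did not overlap for 19.4% and 17.2% of all tested genes in these comparisons. Ccnd2, which was not called, had the lowest adjusted p of the list in both. It differed by 0.85 between ICH and sham (SE 0.16, adjusted p = 0.277). Between feb and ICH it differed by -0.65 (SE 0.16, adjusted p = 0.271). Mki67, a marker of dividing cells, had an RPKM of 2.10, 2.76, and 2.26 in sham 1 to 3, 4.85, 10.9, and 2.59 in ICH 1 to 3, and 2.31, 1.98, and 2.01 in feb 1 to 3. ICH 1 and ICH 2 were above all other mice, and ICH 3 was below sham 2. Mki67 was higher in ICH than in sham by 1.10 (SE 0.42, adjusted p = 0.382) and lower in feb than in ICH by -1.26 (SE 0.42, adjusted p = 0.357), and both calls were lost without ICH 2, the first also without ICH 1, sham 1, or sham 3. Rrm2, which supplies deoxynucleotides for DNA synthesis, was higher in ICH by 1.14 (SE 0.37, adjusted p = 0.347), and Top2a, a DNA topoisomerase of dividing cells, was lower in feb than in ICH by -1.21 (SE 0.45, adjusted p = 0.393), calls that were also lost without ICH 2, and that of Top2a without feb 3. Among the members, ICH 2 was below sham 2 for the 4 Dlx genes, Sp8, Dcx, Tubb3, and Igfbpl1, and above it for Sox11 and Cd24a. Against the other sham mice, ICH 2 was above sham 3 for Dlx5, Dlx6, Sox11, Dcx, and Cd24a. It was above sham 1 for every member except Tubb3. Dividing cells of other kinds carry the same markers, and which cells these were was not tested. Of 10 leukocyte markers, 4 passed the filter and 0 were called in any comparison, with a summed RPKM of 9.34 to 12.2 in the sham mice, 6.65 to 15.0 in the ICH mice, and 6.26 to 8.55 in the feb mice.

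Among 12 genes of the stem cells, Thbs4, which encodes a matrix protein made by stem cells of the subventricular zone, was called higher than sham in the ICH group (1.37, SE 0.40, adjusted p = 0.345) and in the feb group (1.39, SE 0.40, adjusted p = 0.565), and both calls were lost without sham 2. Fabp7, a fatty acid binding protein of radial glia-like cells, was called lower in the feb group than in the ICH group (-1.20, SE 0.23, adjusted p = 0.211) and than in the sham group (-1.34, SE 0.23, adjusted p = 0.292), and the first call was lost without ICH 1. Its RPKM was 17.4, 12.9, and 17.9 in sham 1 to 3, 19.2, 12.8, and 12.1 in ICH 1 to 3, and 6.16, 7.80, and 4.96 in feb 1 to 3, so every feb mouse was below all the others. Gfap, which also marks reactive astrocytes, had 573 in ICH 2 and 54.5 to 160 in the other 8 mice.

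Markers of other neurons also differed between mice. The 12 markers of striatal medium spiny neurons, the main neurons of the structure beside the lateral ventricle, had a summed RPKM of 120, 685, and 258 in sham 1 to 3, 296, 530, and 601 in ICH 1 to 3, and 459, 235, and 441 in feb 1 to 3. Sham 1 was the lowest and sham 2 the highest, as for Dlx5 and Dlx6, but the order of the other mice differed. Among the ICH mice, ICH 1 had the lowest striatal sum and the highest Dlx5 and Dlx6. Of these 12 markers, 0 were called in any comparison and 11 were positive for ICH against sham, with a median of 0.72, and none was at 0 in all mice. Without sham 2, 9 of them were called higher in ICH than in sham, and 5 were called higher in the feb group. For Dlx2 and Drd1, a dopamine receptor of these neurons, r was 0.772 (exact permutation p = 0.0495, adjusted 0.0743) and rho 0.367 (p = 0.336, adjusted 0.388), and 0.0535 without sham 1. Dlx1 and Gad1, the enzyme that makes GABA, had r = 0.686 (exact permutation p = 0.0233, adjusted 0.0388) and rho = 0.650 (p = 0.0666, adjusted 0.125), with r = 0.549 without sham 1 and ICH 1. The part of these cells in the members' values was not tested.

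**Figure D4:**
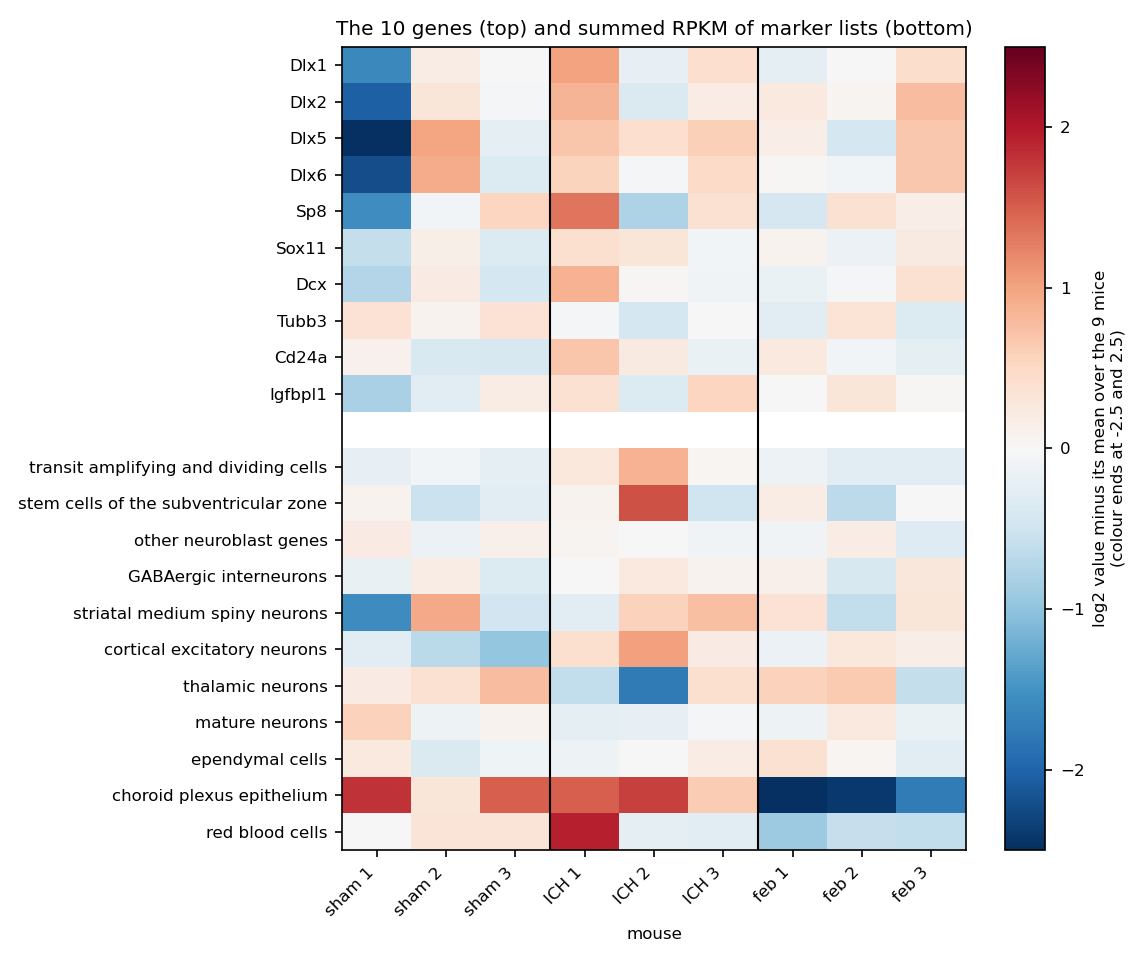
Log2 values of the 10 genes (rows above the gap, from RPKM + 0.1) and of the summed RPKM of 11 marker lists (rows below), each minus its mean over the 9 mice, with mice in columns and groups parted by lines. Sham 1 is blue for the Dlx genes, Sp8, and the striatal markers, and the choroid plexus row is blue in the 3 feb mice only.

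Some markers of other cells were called between groups. Of all tested genes, 2.53% were called for ICH against sham, 2.43% for feb against ICH, and 2.2% for feb against sham. None of the cortical, thalamic, choroid plexus, or red blood cell markers below had an adjusted p under 0.05. Of 8 markers of cortical excitatory neurons, 6 were called higher in the ICH than in the sham group, with a summed RPKM of 31.7 to 51.7 in the sham mice, 71.9 to 127 in the ICH mice, and 56.4 to 74.4 in the feb mice. The call of Emx1 was lost without sham 3, and that of Neurod6 without sham 2, sham 3, or ICH 2. Of the 8, 3 were called lower in feb than in ICH and 2 higher in feb than in sham. Tbr1, a transcription factor of these neurons, was higher by 1.82 (SE 0.42, adjusted p = 0.330), and over the mice Dcx and Tbr1 had r = 0.472 (exact permutation p = 0.203, adjusted 0.235) and rho = 0.433 (p = 0.250, adjusted 0.312). The 7 thalamic markers were all negative for ICH against sham, and 1, Tcf7l2, was called lower in ICH (-1.61, SE 0.61), a call lost without ICH 1, ICH 2, sham 1, or sham 3. Their summed RPKM overlapped between groups, at 155 to 231 in the sham mice, 39.9 to 178 in the ICH mice, and 89.9 to 213 in the feb mice. In the comparison of feb with ICH, 8 of 8 markers of choroid plexus epithelium were called lower, with a summed RPKM of 30.6 to 88.4 in the feb mice, 458 to 967 in the ICH mice, and 365 to 1035 in the sham mice, and 7 of 8 were called lower in feb than in sham. None of these markers was at 0 in all mice. Of 5 tested genes of red blood cells, 4 were called lower in feb than in ICH and 3 lower in feb than in sham, with a summed RPKM of 124 in ICH 1, 17.2 to 21.7 in the feb mice, and 26.8 to 40.7 in the other 5 mice. All 4 calls against ICH were lost without ICH 1, and all 3 against sham without feb 1, feb 3, or sham 2. The choroid plexus hangs in the ventricle next to the subventricular zone, and no member showed a separation of the feb mice of this kind. The part of these cells in the members' differences was not tested.

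The remaining lists had few calls. Among 18 tested paralogs of the members, 0 were called between ICH and sham, Igfbp2 and Igfbp6 were lower in feb than in ICH by -1.32 (SE 0.41) and -1.19 (SE 0.51), and Igfbp2 was lower in feb than in sham by -1.27 (SE 0.41). Of 10 markers of GABAergic interneurons, Vip was higher in ICH than in sham by 1.36 (SE 0.51) and Npy higher in feb than in sham by 1.05 (SE 0.43). Of 6 tested markers of newborn hippocampal neurons, Bhlhe22 was higher in feb than in sham by 1.15 (SE 0.41) and 0 were called in the other comparisons. Of 3 tested markers of olfactory bulb output neurons, 0 were called in each comparison. The summed RPKM of the olfactory bulb list was 8.58 in ICH 1, against 2.28 to 3.16 in the other mice. ICH 1 was also the highest mouse for 6 members, and the part of olfactory bulb tissue in the members' values was not tested. With a mouse left out, the call of Igfbp6 was lost in 6 of 9 fits, that of Npy in 5, that of Vip in 4, and that of Bhlhe22 in 3. Igfbp2 stayed lower in feb than in ICH in 9 of 9 fits, and lost its call against sham without sham 1 or feb 1.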

How the data were processed

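The authors trimmed the reads, collapsed reads with the same unique molecular identifier into consensus reads, aligned them to GRCm38 with STAR, counted them on exons with featureCounts (Subread 1.5.1), and deposited RPKM per gene. The submitters' processing notes name Trimmomatic 0.36 and edgeR 3.12.1, and per the labels the kit keeps strand. Which annotation release was used, whether counting used strand, and how reads matching more than 1 gene were treated are not given in the sources used here. RPKM values came out as whole multiples of 1 read within 0.01 in 100% of cases, so reads were recovered (23065757 to 29538009 per mouse), and 0 columns of the table were left unmapped. Read collapse removes PCR copies, and counts still carry counting error.

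Group means were compared with limma 3.58.1 (R 4.3.3, lmFit and eBayes with trend) on log2(RPKM + 0.1) with all 9 samples and no block, keeping genes whose RPKM reached 0.1 in 3 or more samples. A count test was not the main test because the authors deposited RPKM. The fit was tested on simulated data. Tables, correlations, and figures used Python 3.11.15, numpy 2.4.6, pandas 2.3.3, scipy 1.17.1, and matplotlib 3.10.9.

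The members and the 18 other gene lists were chosen with earlier results of these data known. Named genes are all members, the genes of 15 pairs, the called genes of each list and up to 4 others with the highest mean RPKM, the 8 genes most like the mean of the members, and the 3 most like Dcx and Dlx1. Rbfox3 and Robo2 fall outside this rule and were chosen after their values were seen, as was Ccnd2. Groups share replicate numbers. Same-numbered samples had correlations of their deviations from group means between -0.127 and 0.019, and differently numbered ones between -0.121 and 0.166. Deviations within a group cancel out, so this check cannot exclude a batch shared by number, and no pairing was assumed in the main fit. Alternatives were 2 other pseudocounts, no filter and a filter at an RPKM of 1, equal medians, quantile normalization, a fit of the 2 groups compared, no trend, the replicate block, voom with TMM factors, no fold criterion, and each sample left out in turn. Gene positions and exon lengths are those of the deposited table. The 250 bases before each start site came from RefSeq, and exons and transcripts for the overlaps and shared runs from GENCODE, both on GRCm38.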

Additional observations from a re-analysis of the deposited data

How the results depend on the processing

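With each mouse left out in turn, 0 to 3 members were called for ICH against sham (Dlx1, Dlx5, and Dlx6 without sham 2) and 0 to 3 for feb against sham (Dlx2, Dlx5, and Dlx6 without sham 2), and 0 for feb against ICH. Without the fold criterion, 1 member, Sox11, was called for ICH against sham. Of 564 alternative values of the members, 545 kept their direction and side of the threshold, 6 passed it, and 13 changed sign, all of them with a mouse left out. For feb against ICH the ranges with a mouse left out were -0.16 to 0.44 for Dlx2, -0.34 to 0.021 for Dlx6, -0.83 to 0.23 for Sp8, -0.38 to 0.10 for Dcx, -0.14 to 0.21 for Tubb3, and -0.35 to 0.086 for Igfbpl1. For feb against sham they were -0.022 to 0.88 for Dlx1, -0.22 to 1.69 for Dlx5, -0.076 to 1.49 for Dlx6, and -0.19 to 0.85 for Sp8. The cause was not tested. Of 180 alternative correlations, 14 lost their call and 1 changed sign, that of Tubb3 and Snap25 (-0.139 to 0.458 with a mouse left out).

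The fit with the replicate block called 0 members in each comparison, and its only unadjusted p under 0.05 was that of Cd24a for ICH against sham (unadjusted p = 0.0146, adjusted p = 0.507 in limma). Over all genes it called 717, 684, and 615, against 735, 706, and 639 without the block (ICH against sham, feb against ICH, and feb against sham). A pseudocount of 1 called 158, 128, and 91 genes, and a filter at an RPKM of 1, which leaves out Sp8 and Igfbpl1, called 346, 287, and 263. Leaving out sham 2 called 1299 genes for ICH against sham and 1150 for feb against sham, and leaving out feb 2 called 1030 for feb against sham. An unadjusted p under 0.05 alone called 3570, 3212, and 2478. Equal medians changed the calls for feb against sham from 461 higher and 178 lower to 300 higher and 252 lower. Igfbpl1 and Sp8 rest on few reads, and 3 samples per group limit every comparison. A fit that left out a mouse used the remaining 8.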
